A study of Homo sapiens with 9 samples.

Results

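The transcripts of 10 cytosolic heat shock genes, HSPA1A, HSPA1B, HSPA1L, HSPA8, HSPH1, HSPA4L, DNAJB1, DNAJA1, HSP90AA1 and HSPB1, were followed across SmcHD1 knock-down and control HEK293 cells. They were found as the 14 probes whose RefSeq accession maps to these genes, out of 42405 probes on the array, and all 14 were well above background on all 9 arrays. The 10 genes were chosen by their measured differences between the knock-down and control arrays of these same data, so those differences, and the differences between the knock-downs, are given as a description, without a test. HEK293 is a line derived from human embryonic kidney. All cells had been infected with retrovirus made from the pQCXIP-GFP vector and selected with puromycin, and they were grown without further treatment. The KD3 group carried shRNA 3 and the KD4 group shRNA 4, both directed at SmcHD1, a chromatin protein related to the Smc family. The control group, CTL, carried the shRNA NC5. Each group carries 1 shRNA and was measured on 3 arrays that the methods call biological triplicates. Neither the labels nor the methods say whether the triplicates came from separate infections or cultures, so the errors and p-values measure the spread between these arrays, which may be technical. With 3 arrays in a group, precision is limited by their number.

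Heat shock proteins are chaperones, which bind unfolded proteins and help them fold, refold or be degraded. HSP70 proteins cycle on and off their clients with ATP, J-domain proteins deliver clients and trigger the ATP step, and HSP110 proteins exchange the nucleotide. HSP90 acts on clients closer to their native state, and small heat shock proteins hold unfolded proteins without using ATP. The transcription factor HSF1 is held inactive by chaperones in unstressed cells. When unfolded proteins accumulate it forms trimers and binds heat shock elements, which are alternating GAA and TTC units spaced by a pair of bases.

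Values are log2 of the background-subtracted green signal after quantile normalization, so a difference of 1 is a doubling. Before normalization the arrays' median processed signals ran from 118 to 182, and no spot was saturated. The SMCHD1 transcript was at 51.0% of CTL in KD3, a log2 difference of -0.97 (limma adjusted p = 2.1e-04), and at 34.6% in KD4, a log2 difference of -1.53 (limma adjusted p = 1.8e-05, SE 0.0897 for both). It was read by the brightest of 3 probes, and the others are not given here. All 10 HEK293 marker genes were well above background on all 9 arrays. Of these markers NEFL, NEFM, PAX2, LHX1 and EPCAM were lower and HOXA9 was higher in both knock-downs at a limma adjusted p under 0.05, with PAX2 the furthest from CTL at log2 differences of -2.41 and -2.65. Of 8 markers of other cell types on the array, PECAM1, HBB and MYH1 were above background on no array. The 4 markers PTPRC, CD3E, CDH5 and DES were above background on all 9. The number above background was 4 on every array but KD3 replicate 3, where it was 5. On each array 75.1% to 79.8% of all probes were well above background, so this does not by itself tell cell types apart. The part of the marker genes in the values of the heat shock genes was not tested. In these bulk samples a change in the share of cells that make a transcript and a change in the transcript per cell cannot be told apart.

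The promoters are shown because they bear the sites that HSF1 can bind. The genes were listed as targets of HSF1, so a high share with such sites follows in part from the listing and is given as a description. RefSeq promoter windows of the assembly GRCh38.p14, running from 250 bases before to 50 bases after a start site, were found for all 10 genes, 15 windows in all. The motifs searched were GAANNTTC and TTCNNGAA, each equal to its own reverse complement and so read on both strands at once. They are called 2-unit elements here, and GAANNTTCNNGAA and TTCNNGAANNTTC, each other's reverse complement, are called 3-unit elements. A 3-unit element holds 2 overlapping 2-unit elements. The 250 bases before the start site follow for 6 of the genes, 5′ to 3′ on the strand of the gene, with the elements in capitals. HSPA1A and HSPA1B show a single element at the same place, HSPA8, DNAJB1 and HSP90AA1 show several, and HSPH1 shows none.
HSPA1A, chr6:31815293-31815542, plus strand: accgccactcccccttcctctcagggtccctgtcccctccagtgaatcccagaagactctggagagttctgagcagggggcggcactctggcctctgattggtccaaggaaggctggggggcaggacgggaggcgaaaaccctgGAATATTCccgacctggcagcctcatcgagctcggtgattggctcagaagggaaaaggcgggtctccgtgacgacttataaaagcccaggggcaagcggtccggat
HSPA1B, chr6:31827488-31827737, plus strand: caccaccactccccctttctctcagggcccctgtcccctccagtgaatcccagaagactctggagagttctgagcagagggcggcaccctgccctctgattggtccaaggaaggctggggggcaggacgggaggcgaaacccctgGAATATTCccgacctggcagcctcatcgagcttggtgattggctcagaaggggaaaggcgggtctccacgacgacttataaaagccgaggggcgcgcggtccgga
HSPA8, chr11:123062137-123062386, minus strand: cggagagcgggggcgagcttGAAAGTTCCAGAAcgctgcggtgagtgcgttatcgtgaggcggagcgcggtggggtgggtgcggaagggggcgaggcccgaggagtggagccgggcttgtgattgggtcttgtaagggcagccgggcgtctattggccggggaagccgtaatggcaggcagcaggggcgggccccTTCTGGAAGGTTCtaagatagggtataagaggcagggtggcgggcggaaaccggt
DNAJB1, chr19:14518398-14518647, minus strand: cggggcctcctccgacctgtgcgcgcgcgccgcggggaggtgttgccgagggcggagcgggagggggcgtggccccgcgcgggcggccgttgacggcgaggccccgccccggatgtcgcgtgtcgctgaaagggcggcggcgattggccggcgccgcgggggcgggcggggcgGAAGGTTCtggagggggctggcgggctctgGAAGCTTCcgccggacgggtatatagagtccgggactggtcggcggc
HSP90AA1, chr14:102087045-102087294, minus strand: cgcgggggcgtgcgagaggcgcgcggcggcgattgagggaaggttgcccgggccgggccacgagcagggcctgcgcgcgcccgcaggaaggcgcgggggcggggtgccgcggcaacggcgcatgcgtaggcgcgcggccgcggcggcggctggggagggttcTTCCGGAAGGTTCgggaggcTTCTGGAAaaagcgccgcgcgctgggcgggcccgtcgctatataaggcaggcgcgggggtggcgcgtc
HSPH1, chr13:31162389-31162638, minus strand: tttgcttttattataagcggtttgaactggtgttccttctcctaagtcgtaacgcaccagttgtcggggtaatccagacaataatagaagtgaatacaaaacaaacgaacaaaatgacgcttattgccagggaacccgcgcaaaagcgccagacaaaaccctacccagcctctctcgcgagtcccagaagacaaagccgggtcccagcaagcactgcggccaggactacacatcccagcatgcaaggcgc

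At least 1 window held a 2-unit element for 9 of the 10 genes (90%), against 16.2% of the 27305 genes with a window. The element of HSPA1A and that of HSPA1L are the same site, described below, counted for both genes and in both windows. Several such elements in 1 window were found for 4 of the 10, HSPA8, DNAJB1, DNAJA1 and HSP90AA1, against 2.11% of all genes. The 3-unit element was found for HSPA8, DNAJA1 and HSP90AA1, against 0.608% of all genes. In HSPA8 there were 2 of them, starting at -230 and -55 from the start site. In HSP90AA1 the 3-unit element started at -88 and a further 2-unit element at -68. In DNAJA1 the 3-unit element lay just after the start site, from position 4, and a 2-unit element lay at -198. Counted by window rather than by gene, 10 of 15 windows (66.7%) held a 2-unit element, against 13.5% of 35116 windows. These matches are a description of letters in the windows, not of bound sites, and no match says only that these letters are not in that window.

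**Figure D1:**
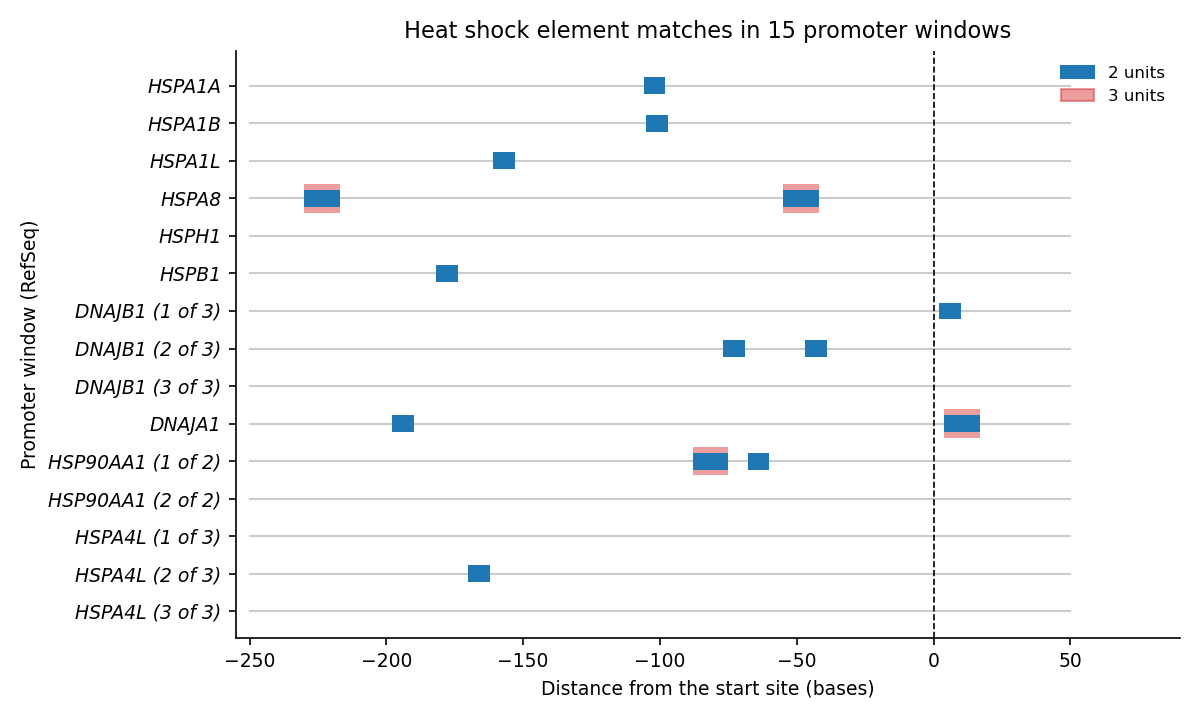
Matches to heat shock elements in the 15 RefSeq promoter windows of the 10 heat shock genes (rows), by distance in bases from the start site, which is the dashed line. Blue bars are 2-unit and pale red bars 3-unit elements. Elements appear in 10 windows, and 3-unit elements in the windows of HSPA8, DNAJA1 and HSP90AA1.

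The 3 HSPA1 genes lie side by side on chromosome 6. HSPA1L, a gene for an HSP70 protein mainly known from the testis, starts 260 bases from HSPA1A and runs the other way, so that their windows have 241 bases in common. The element GAATATTC at chr6:31815437-31815444 is therefore the same in both, at -106 from the HSPA1A start and at -161 from the HSPA1L start. The HSPA1B start lies 12195 bases from that of HSPA1A. In a global alignment 235 of 249 paired bases before the start were identical between HSPA1A and HSPA1B (94.4%), the element GAATATTC included, which lies at -105 from the HSPA1B start.

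HSPA1A and HSPA1B encode nearly the same stress-inducible HSP70 protein, and the HSPA1 genes showed the highest differences of the 10 genes, except that with normexp background correction HSPA1L in KD3 was below HSPH1. The HSPA1A probe, read from 10 spots per array, gave 13.48, 13.39 and 12.85 in CTL replicates 1, 2 and 3, then 15.19, 15.18 and 15.24 in KD3, and 15.40, 15.22 and 15.29 in KD4. All 6 knock-down arrays were far above the CTL arrays, and KD3 and KD4 overlapped. The signal was 3.90-fold CTL in KD3 and 4.18-fold in KD4, log2 differences of 1.96 and 2.06 (SE 0.151). For HSPA1B the values were 14.69, 14.59 and 14.13 in CTL, 15.42, 15.48 and 15.52 in KD3, and 15.93, 15.74 and 16.03 in KD4. Here the 3 groups did not overlap and KD4 was above KD3. HSPA1B was 2.01-fold CTL in KD3 and 2.70-fold in KD4, log2 differences of 1.01 and 1.43 (SE 0.143). Because the transcripts of HSPA1A and HSPA1B are nearly identical, each probe may bind both, and which transcript gave a signal is uncertain. HSPA1L was much dimmer, with 6.14, 5.94 and 5.31 in CTL, 6.96, 6.96 and 7.19 in KD3, and 7.58, 7.24 and 7.54 in KD4. Its groups did not overlap either, and it was 2.37-fold CTL in KD3 and 3.16-fold in KD4, log2 differences of 1.24 and 1.66 (SE 0.201). With normexp background correction these were 0.74 and 1.03, and HSPH1 was at 0.83 in KD3.

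The HSPA1A and HSPA1B probes did not move by the same amount, as their ratio within each array shows. The log2 signal of the HSPA1A probe minus that of the HSPA1B probe was -1.21, -1.20 and -1.28 in CTL, -0.24, -0.31 and -0.28 in KD3, and -0.53, -0.52 and -0.74 in KD4. The 3 groups stood apart on this ratio, with CTL lowest and KD3 highest. Relative to CTL it was 0.96 higher in KD3 and 0.63 higher in KD4. The mean difference of KD4 from KD3 was -0.32, and the arrays of these groups did not overlap. Only differences of this ratio between groups are read here, not its level, because the probes bind with different strength.

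**Figure D2:**
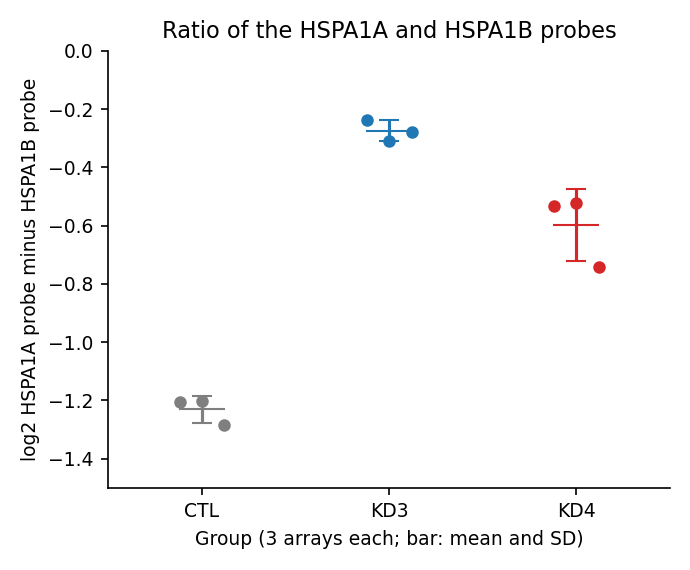
Log2 signal of the HSPA1A probe minus that of the HSPA1B probe on each array (vertical axis), by group (horizontal axis), with points for arrays and bars for the mean and SD of 3 arrays. CTL lies between -1.28 and -1.20, KD4 between -0.74 and -0.52, and KD3 between -0.31 and -0.24.

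HSPA8 encodes the constitutive HSP70, which is abundant in unstressed cells. Its probe gave 13.71, 13.63 and 13.21 in CTL, 13.77, 13.87 and 14.00 in KD3, and 14.06, 14.16 and 14.04 in KD4. KD3 replicate 1 was only just above the highest CTL array. The log2 differences were 0.36 in KD3 and 0.57 in KD4 (SE 0.131). Within slide 2 alone, which holds 2 KD3 arrays, 1 KD4 array and CTL replicate 1, they were 0.18 and 0.35.

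The HSP110 proteins, which exchange the nucleotide of HSP70, are represented by HSPH1 and HSPA4L. HSPH1 had the tightest knock-down values of the 10 genes, 14.48, 14.45 and 14.46 in KD3 and 14.46, 14.46 and 14.48 in KD4, against 13.70, 13.79 and 13.45 in CTL. KD3 and KD4 overlapped, and both lay well above CTL. HSPH1 was 1.76-fold CTL in KD3 and 1.77-fold in KD4, a log2 difference of 0.82 in each (SE 0.0894). A second HSPH1 probe gave log2 differences of 0.79 and 0.80 (SE 0.101). HSPA4L, a relative of HSPH1, went another way. Its values were 10.60, 10.68 and 10.42 in CTL, 10.97, 10.86 and 10.93 in KD3, and 10.63, 10.62 and 10.56 in KD4. KD3 was above both other groups, while KD4 lay within the range of CTL, with log2 differences of 0.35 in KD3 and 0.04 in KD4 (SE 0.0818).

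DNAJB1, an inducible J-domain partner of HSP70, gave 11.43, 11.36 and 11.21 in CTL, 11.78, 12.01 and 12.11 in KD3, and 12.21, 12.14 and 12.10 in KD4. Every knock-down array was above every CTL array, and KD3 replicate 1 was the lowest among them. DNAJB1 was 1.55-fold CTL in KD3 and 1.76-fold in KD4, log2 differences of 0.63 and 0.82 (SE 0.0993). DNAJA1 is a farnesylated J-domain protein of the cytosol, and its values were 12.76, 12.63 and 12.24 in CTL, 13.02, 12.99 and 13.06 in KD3, and 13.31, 13.21 and 13.40 in KD4. The groups did not overlap, with KD4 highest. DNAJA1 was 1.39-fold CTL in KD3 and 1.69-fold in KD4, log2 differences of 0.48 and 0.76 (SE 0.128).

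HSP90AA1, the stress-inducible cytosolic HSP90, had the brightest probe of the 10 genes and small differences. Its brightest probe gave 17.13, 17.22 and 17.06 in CTL, 17.46, 17.55 and 17.39 in KD3, and 17.35, 17.32 and 17.40 in KD4, log2 differences of 0.33 and 0.22 (SE 0.0731). All knock-down arrays were above all CTL arrays on this probe. A second probe, read from 10 spots, gave log2 differences of 0.20 and 0.04 and overlapped with CTL in both knock-downs. The third probe, of 1 spot, gave 0.27 and 0.17 without overlap.

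HSPB1, also named HSP27, is the small heat shock protein of the set. Its bright probe gave 11.61, 11.65 and 11.70 in CTL, 11.79, 12.03 and 12.05 in KD3, and 12.20, 12.31 and 12.30 in KD4. The 3 groups did not overlap, and the log2 differences were 0.30 in KD3 and 0.61 in KD4 (SE 0.0855). A dim second probe, near 4 on this scale in CTL, had a KD3 spread (SD 0.692) as large as its log2 differences of 0.67 in KD3 and 0.19 in KD4. On the dim probe KD4 minus KD3 was -0.48 on the log2 scale with a 95% interval of -1.20 to 0.24, whereas the bright probe gave 0.31.

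**Figure D3:**
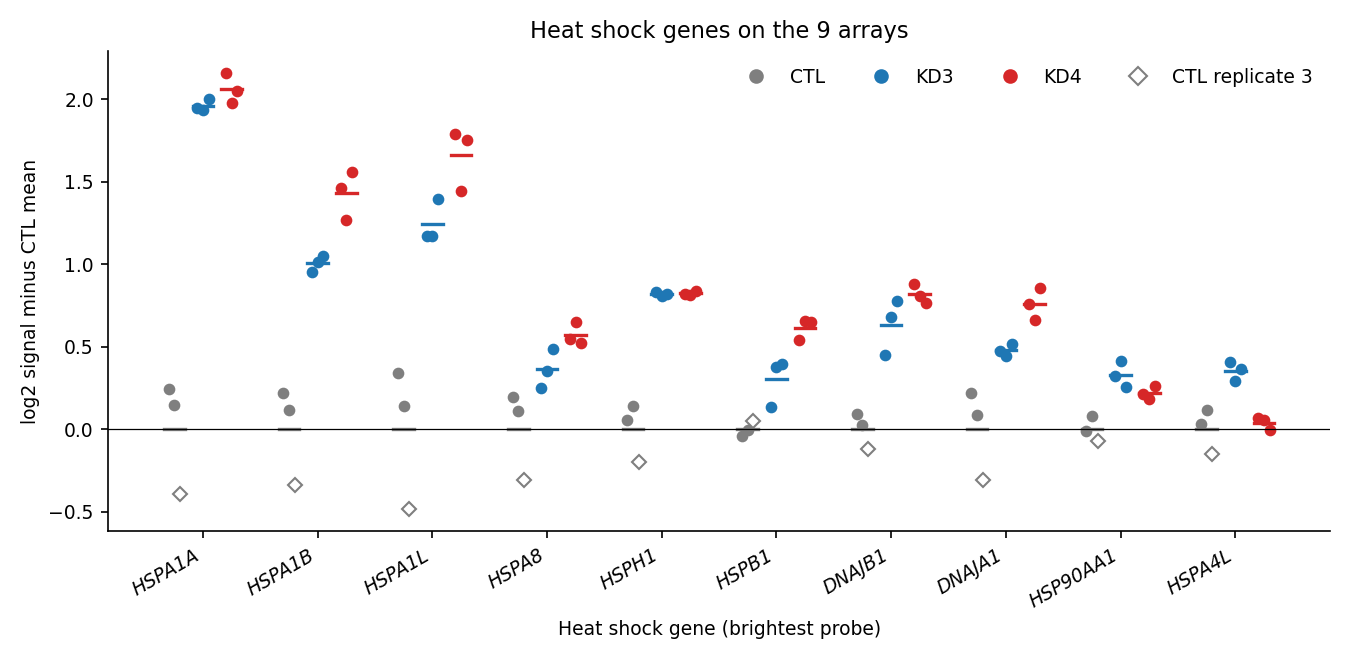
Log2 signal of the brightest probe of each heat shock gene on each of the 9 arrays, minus the mean of the 3 CTL arrays (vertical axis), by gene (horizontal axis). Points are arrays, short lines group means and open diamonds CTL replicate 3. The 6 knock-down arrays lie above the CTL arrays for every gene but HSPA4L, and CTL replicate 3 is the lowest CTL array for every gene but HSPB1.

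Counted by the brightest probe, all 10 genes had a mean above CTL in KD3 and in KD4, and for 9 of them each of the 6 knock-down arrays lay above each CTL array. HSPA4L was the exception. The same holds for 12.8% of all 26862 genes and accessions tested. The median log2 difference of the 10 genes was 0.56 in KD3 and 0.79 in KD4, and that of all genes tested was 0.01 and 0.04. With a call set at a limma adjusted p under 0.05 and a fold of at least 1.8, HSPA1A, HSPA1B and HSPA1L were called higher in both knock-downs. In KD3 1.15% of all genes were called higher and in KD4 1.43%. Nothing is read from these counts, since the genes were listed on this contrast. HSPH1 was just under the threshold with folds of 1.76 and 1.77, and so was DNAJB1 in KD4. With normexp background correction HSPA1L in KD3 was under it too, at a log2 difference of 0.74.

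CTL replicate 3 was the lowest CTL array for 9 of the 10 genes, against 33.5% of all genes tested. Its part in the differences can be measured by leaving it out. HSPA1A was then at 1.77 in KD3 and 1.87 in KD4 on the log2 scale, HSPA1L at 1.00 and 1.42, HSPH1 at 0.72 in both, and DNAJA1 at 0.32 and 0.61. HSPA1B was at 0.84 in KD3, just under the fold of 1.8, so that 2 of the 10 genes were called in KD3 and 3 in KD4. HSPA4L in KD4 changed sign, to -0.03. Without CTL replicate 1 the number called in KD4 was 6. The shares of all genes called with an array left out were not counted, so nothing is read from these numbers. The arrays lay on 2 slides, each holding all 3 groups. Slide 1 holds 1 KD3 array, 2 KD4 arrays and CTL replicates 2 and 3. Slide 2 holds 2 KD3 arrays, 1 KD4 array and CTL replicate 1, so KD4 there is 1 array against 1 array. HSPA1A was at 2.06 in KD3 and 2.14 in KD4 within slide 1, and at 1.73 and 1.92 within slide 2. HSPB1 and HSPH1 were at 0.36 and 0.84 in KD3 within slide 1, and at 0.31 and 0.77 within slide 2. Other genes, HSPA1A among them, moved more between the slides in KD3 than HSPB1 and HSPH1. In KD3 HSPA1B was at 1.12 within slide 1 and 0.78 within slide 2, the latter under the fold of 1.8. HSPA1L was at 1.34 and 0.94, and DNAJA1 at 0.55 and 0.28.

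The knock-downs can also be set against each other without the CTL arrays. The KD3 and KD4 values are among those on which the genes were listed, so this too is a description, and the 95% intervals from limma cover the spread between arrays but not the choice of genes. On the brightest probes KD4 was above KD3 for 8 of the 10 genes, as it was for 55% of all genes tested, with a median log2 difference of 0.20 against 0.02 over all genes. For 5 of the 10, HSPA1B, HSPA1L, HSPA8, HSPB1 and DNAJA1, every KD4 array lay above every KD3 array, which held for 14.3% of all genes. HSPA1B was higher in KD4 by a log2 difference of 0.42 (interval 0.098 to 0.751). HSPB1 was higher in KD4 by 0.31 on the log2 scale (interval 0.116 to 0.505). HSPA4L was the other way, with KD4 below KD3 by a log2 difference of -0.31 (interval -0.500 to -0.127). For HSPH1 the difference of 0.0034 had an interval of -0.200 to 0.207, and for HSPA1A that of 0.10 had an interval of -0.243 to 0.446. By limma 0 of the 10 differed at an adjusted p under 0.05, which 2.49% of all genes did, and 3 differed at an unadjusted p under 0.05, which 19% of all genes did. By the methods' t-test 5 differed without adjustment, against 15.3% of all genes, and 0 with it. With normexp background correction HSPA4L was the 1 gene that differed by limma after adjustment.

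**Figure D4:**
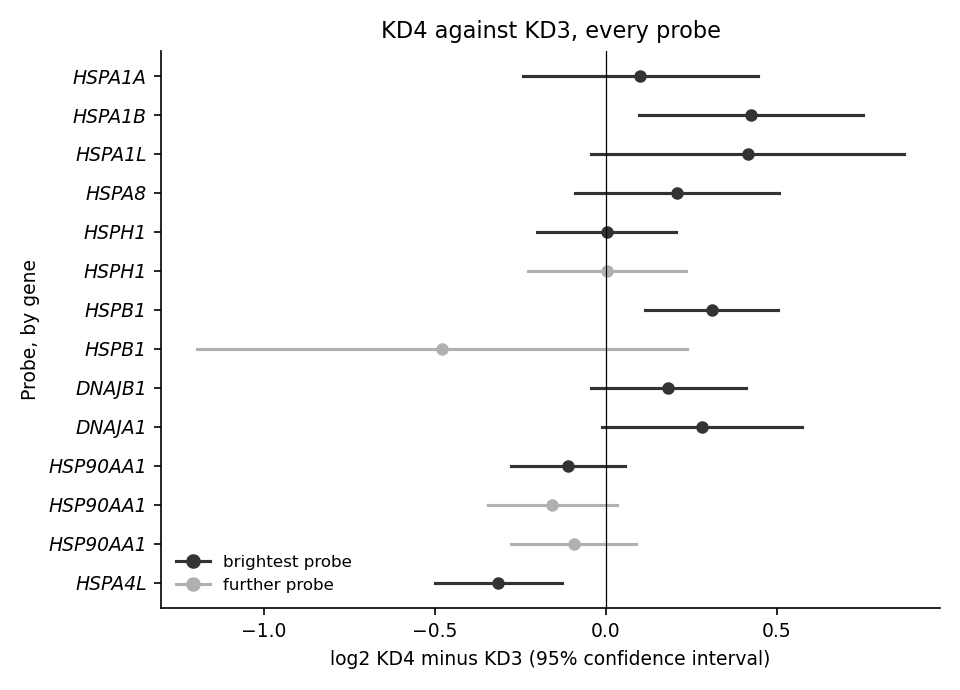
Log2 difference of KD4 minus KD3 (horizontal axis) for the 14 heat shock probes (rows, by gene), with 95% confidence intervals from limma as lines. Dark points are the brightest probe of each gene and pale points further probes. The intervals of HSPA1B and HSPB1 lie above 0 and that of HSPA4L below it on the brightest probes, with no adjustment for the number of probes or for the choice of genes.

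Other genes of the heat shock response were read from a list of 25 further genes that HSF1 is known to act on, of which 24 were tested. This list and the lists below were chosen with earlier results of these data known. The counts and p-values given for them do not allow for that choice. In KD3 4 were higher and 2 lower at a limma adjusted p under 0.05, where 9.47% of all genes were higher and 10.5% lower. In KD4 9 were higher and 2 lower, where 13.4% of all genes were higher and 14.7% lower. The median log2 differences of the list were 0.15 and 0.17. CHORDC1, an HSP90 co-chaperone, rose by 0.78 in KD3 and 0.87 in KD4 on the log2 scale (SE 0.0803, limma adjusted p = 3.7e-04 and 1.7e-04). BAG3, a nucleotide exchange factor that links HSP70 to autophagy, rose by 0.43 and 0.58 (SE 0.0811, limma adjusted p = 0.0073 and 0.00125). HSPE1, the mitochondrial co-chaperonin, rose by 0.36 and 0.38 (SE 0.0974, limma adjusted p = 0.0324 and 0.0193). It no longer passed in KD3 with signals scaled to the 75th percentile (limma adjusted p = 0.0615), nor after leaving out KD3 replicate 1, KD3 replicate 3, any KD4 array or CTL replicate 3 (limma adjusted p from 0.051 to 0.102), and in KD4 it no longer passed after leaving out any KD4 array (limma adjusted p from 0.0524 to 0.0569). In all it did not pass in KD3 under 11 of 17 limma alternatives, the blocks by replicate number and by slide included, and in KD4 under 3. HSPA2, an HSP70 best known from the testis, fell, with log2 differences of -0.32 and -0.27 (SE 0.0691, limma adjusted p = 0.0126 and 0.0191). IER5, a regulator of HSF1, fell, with differences of -0.40 and -0.35 (SE 0.0868, limma adjusted p = 0.0128 and 0.0179). In KD4 the call of HSPA2 was lost on leaving out KD4 replicate 1, KD4 replicate 2 or CTL replicate 2 (limma adjusted p from 0.0515 to 0.0722), and that of IER5 on leaving out KD4 replicate 2, CTL replicate 2 or CTL replicate 3 (from 0.054 to 0.064). Of the 21 genes on this list with a promoter window, 12 held a 2-unit element (57.1%) and 5 a 3-unit element (23.8%).

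The HSF1 transcript itself rose by 0.47 in KD3 and 0.43 in KD4 on the log2 scale (SE 0.0616, limma adjusted p = 0.00136 and 0.0014). These values are from the brightest of 3 HSF1 probes tested, and the others are not given here. HSF2, a relative that can pair with HSF1, fell, with log2 differences of -0.21 and -0.22 (SE 0.0595, limma adjusted p = 0.0416 and 0.0262). In KD3 it did not pass with signals scaled to the 75th percentile (limma adjusted p = 0.0786) or after leaving out any array but CTL replicate 2 (limma adjusted p from 0.0665 to 0.121). In KD4 it did not pass after leaving out any KD4 array, CTL replicate 1 or CTL replicate 3 (limma adjusted p from 0.0593 to 0.079). With the replicate number or each pair of groups alone in the fit it passed in neither knock-down, and with the slide as a block it did not pass in KD3. The activity of HSF1 is set largely at the protein level, which the arrays do not measure. Of 5 heat shock factor genes tested, the other 3 did not pass in either knock-down.

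Among 27 tested co-chaperones, 7 were higher and 3 lower in KD3, and 11 were higher and 1 lower in KD4 at a limma adjusted p under 0.05. Of all genes tested, 9.47% were higher and 10.5% lower in KD3, and 13.4% were higher and 14.7% lower in KD4. The number that differed in KD4 was 5 when KD4 replicate 1, KD4 replicate 3 or CTL replicate 3 was left out and 7 when KD4 replicate 2 was, and in KD3 it was 5 when KD3 replicate 2 was left out or each pair of groups was fitted alone. FKBP5, a peptidyl-prolyl isomerase that works with HSP90, rose by 1.12 in both on the log2 scale (SE 0.0754, limma adjusted p = 4e-05 and 3.5e-05). DNAJA2, a close relative of DNAJA1, rose by 0.68 and 0.78 (SE 0.0995, limma adjusted p = 0.00219 and 8.4e-04). BAG2, which inhibits the ubiquitin ligase CHIP, rose by 0.47 and 0.55 (SE 0.0873, limma adjusted p = 0.00645 and 0.00241). DNAJC15, a J-domain protein of the mitochondrion, was well above background on every CTL array and on no knock-down array. It was thus tested only because of its CTL values. It was at least 2.70-fold lower in KD3 and at least 2.20-fold lower in KD4. The floor was the lowest signal well above background on each array, or its own signal where that was higher. The limma fit used the measured values, with means of 2.22 in KD3 and 2.85 in KD4, under mean floors of 2.59 and 2.89. Its limma adjusted p of 0.00932 in KD3 and 0.0412 in KD4 therefore rest on signals not told apart from background. DNAJC15 is the 1 gene counted as lower in KD4. It was not tested when every array had to be well above background. In KD4 its call was lost with signals scaled to the 75th percentile and on leaving out KD3 replicate 1, KD4 replicate 1, KD4 replicate 2 or any CTL array (limma adjusted p from 0.0513 to 0.132). In all it did not pass in KD4 under 9 of 16 limma alternatives.

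Chaperones of other compartments were read in the same way. The shares of all genes to set beside them were 9.47% higher and 10.5% lower in KD3, and 13.4% higher and 14.7% lower in KD4. Counts in lists this short can lie near those shares, and nothing is read from them. Of 15 endoplasmic reticulum chaperones, 4 differed in KD3 and 3 in KD4, all of them higher, and with normexp background correction 5 differed in KD4. DNAJB9, a J-domain protein of that compartment, rose by 0.70 and 0.62 on the log2 scale (SE 0.0755, limma adjusted p = 4.9e-04 and 6.9e-04). HSPA5, its HSP70, rose by 0.53 and 0.57 (SE 0.103, limma adjusted p = 0.0084 and 0.0045). SDF2L1, a partner of J-domain proteins of that compartment, rose by 0.49 and 0.60 (SE 0.0941, limma adjusted p = 0.00745 and 0.00224). Of 10 mitochondrial chaperones 0 passed in KD3 by limma and 2 were lower in KD4, of 8 subunits of the cytosolic chaperonin CCT 0 passed in KD3 while 2 were higher and 1 lower in KD4, and of 4 further small heat shock proteins 0 passed in KD3 and 1 was lower in KD4. At an unadjusted limma p under 0.05 the numbers in KD3 were 2, 3 and 1, and by the methods' t-test without adjustment 0, 1 and 0. In KD4 only 1 mitochondrial chaperone passed after leaving out KD3 replicate 2 or 3, any KD4 array, or CTL replicate 2 or 3, and only 1 CCT subunit after leaving out KD4 replicate 1, KD4 replicate 3 or CTL replicate 3. Only 1 mitochondrial chaperone passed, too, with 75th percentile scaling, with the replicate number as a block or with each pair of groups alone. With each pair alone 1 CCT subunit passed.

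Of 14 immediate early stress genes tested, 2 were higher and 3 lower in KD3, and 5 were higher and 2 lower in KD4. Over all genes 9.47% were higher and 10.5% lower in KD3, and 13.4% were higher and 14.7% lower in KD4. The number that differed in KD3 went from 5 to 3 on leaving out KD3 replicate 1 or 2, KD4 replicate 2 or 3, or CTL replicate 1 or 2, and also when the fit held the replicate number, the slide or each pair of groups alone. JUN, a subunit of the AP-1 transcription factor, rose by 0.34 and 0.56 on the log2 scale (SE 0.0988, limma adjusted p = 0.0427 and 0.00392), and its call in KD3 was lost on leaving out any array but KD4 replicate 1 or CTL replicate 3 (limma adjusted p from 0.06 to 0.113), as it was under 11 of 17 limma alternatives in all. EGR2, a zinc finger transcription factor, fell, with log2 differences of -1.19 and -1.40 (SE 0.129, limma adjusted p = 4.9e-04 and 1.7e-04).

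**Figure D5:**
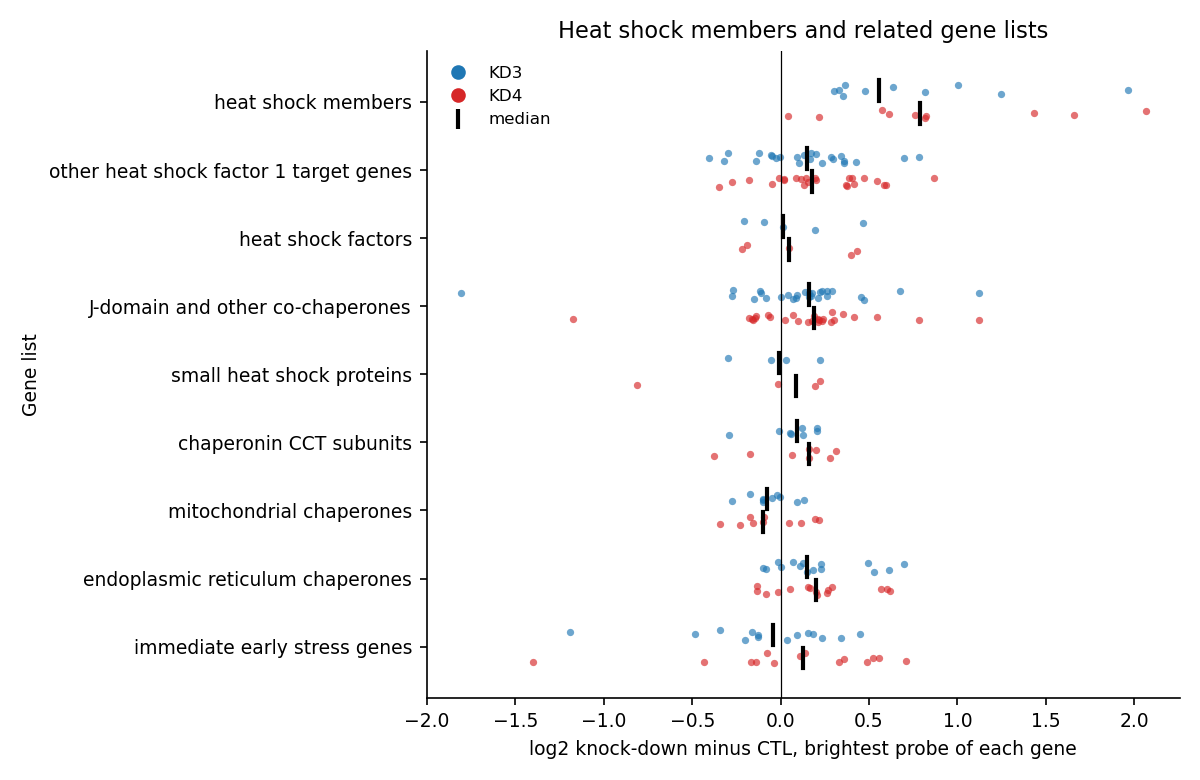
Log2 difference of KD3 (blue) and KD4 (red) from CTL (horizontal axis) for the brightest probe of each tested gene, by gene list (rows), with black bars for the medians. The heat shock members, listed on this contrast, have medians of 0.56 and 0.79, and the other targets of HSF1 have medians of 0.15 and 0.17.

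The pattern of HSPA1B over the 9 arrays was most like that of HSPA1L among 15376 genes well above background on all arrays, with a Pearson r of 0.995. Outside the 10 genes the most alike were SUMO3, a ubiquitin-like modifier, with r = 0.994, XPO5, which exports small RNAs, with r = 0.990, the nuclear import factor KPNA2 with r = 0.989, the phosphatase INPP5K with r = 0.989 and COMMD9 with r = 0.989. SUMO3 was higher than CTL by 0.39 in KD3 and 0.58 in KD4 on the log2 scale, and INPP5K by 0.70 and 0.86. These correlations are descriptions over 9 arrays that fall into 3 groups with the same CTL arrays. Among the members DNAJA1 ranked 20, DNAJB1 100 and HSPA1A 128 by likeness to HSPA1B, while HSP90AA1 with r = 0.773 and HSPA4L with r = 0.351 were far less alike. Over the 45 pairs of the 10 genes the median r was 0.877, from 0.02 to 0.995. After each group's mean was taken away, the median r was 0.618. HSPA1B and DNAJA1 then still had r = 0.978, whereas HSPA1B and HSPB1 had r = -0.148. CTL replicate 3, the lowest CTL array for HSPA1B and DNAJA1 but the highest for HSPB1, is among these deviations.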

How the data were processed

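Expression was measured in 9 samples, 3 each of KD3, KD4 and CTL, on 1-colour Agilent arrays from 100 ng of RNA per sample. The authors deposited the scanner output of each array, with the intensity of every spot from Agilent Feature Extraction 10.10.1.1, whose green processed signal is already background-subtracted, and with flags for outlier spots and for spots above background. They also deposited a table of log2 values, normalized in GeneSpring over the 9 arrays, which was used as an alternative. The methods write quintile normalization, which was read as quantile. That table lay a median of 0.08 below the values used here (the median difference was -0.08).

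Control spots and spots flagged as outliers (260 to 634 per array) were left out, quantile normalization of the log2 signals used limma 3.58.1 (R 4.3.3), and spots of a probe were averaged. Of 42405 probes, 21 lacked a value on 1 or more arrays and were dropped, and 25422 were named by RefSeq accession. On an array 75.1% to 79.8% of probes were well above background, and the 32276 probes that were so throughout at least 1 group were tested. The lowest correlation between arrays of a group was 0.995. A single limma fit of group means took in all 9 arrays, and p-values were adjusted by Benjamini-Hochberg over all tested probes. A gene was read by its brightest probe. The fit was tested on simulated data.

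The members and lists were chosen with earlier results of these data known. Named genes were the 10 members with every probe, SMCHD1, HSF1, HSF2, up to 3 genes of each list and direction with an adjusted p under 0.05 in both knock-downs, by the smaller difference, and the 5 genes most alike to HSPA1B. Marker genes were NEFL, NEFM, PAX2, LHX1, CDH2, VIM, KRT8, KRT18, EPCAM and HOXA9 for HEK293, and PTPRC, CD3E, LYZ, PECAM1, CDH5, ALB, HBB, DES and MYH1 for other cells, besides 1 marker that is not reported here. Promoter sequences and gene names came from RefSeq, GRCh38.p14. Alternatives changed the scaling (75th percentile), the background correction (normexp, offset 50), the source (the authors' log2 values), the filter on dim probes (none, or all 9 arrays), the test (the methods' t-test, unequal variances, with or without adjustment), the groups in the fit (pairs), the block (replicate number, or slide), the fold (1.5) and the probe of a gene (any), besides leaving out each array in turn and, chosen after seeing the data, each slide alone.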

Additional observations from a re-analysis of the deposited data

How the results depend on the processing

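The number of the 10 heat shock genes called was 3 in KD3 and 3 in KD4. With the methods' t-test and adjustment it was 0 in each, and without adjustment 3 in each. With a fold of at least 1.5 it was 5 in KD3 and 7 in KD4. The shares of all genes called against CTL were not counted for these alternatives or for those that follow. The genes were listed on this contrast, so nothing is read from these numbers. Leaving out 1 array at a time gave 2 to 4 in KD3, with the lowest without CTL replicate 3, and 3 to 6 in KD4, with the highest without CTL replicate 1. Between KD4 and KD3 the number that passed was 0, and it was 1 with normexp background correction, 5 by the methods' t-test without adjustment and 0 without any 1 array. Of the other HSF1 target genes 6 differed in KD3 and 11 in KD4. The methods' t-test with adjustment gave 0 and 1, and leaving out 1 array gave 4 to 8 in KD3 and 7 to 11 in KD4, the lowest in KD4 without KD4 replicate 1 or replicate 2. The methods' t-test with adjustment also left 0 to 2 genes in each of the other chaperone and stress lists. The cause of these changes was not tested. Of 420 values of the brightest probes against CTL under the alternatives, 1 was below 0, that of HSPA4L in KD4 without CTL replicate 3. Of 190 values of KD4 minus KD3 under the alternatives, 2 had the other sign, both of HSPH1, whose difference was near 0 (-0.0016 without KD3 replicate 2 and -0.0036 without KD4 replicate 3).

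Deviations of same-numbered arrays from their group means had correlations from -0.08 to 0.14, over 0.1 in 3 of 9 pairs, and 5 of 9 arrays correlated best with their own number. Since not every pair was over 0.1, the numbers were not taken to pair the arrays. With the replicate number as a replicate block, 3 of the 10 genes were called in KD3, 3 in KD4 and 0 between KD4 and KD3, and 5 and 10 of the other HSF1 target genes differed. The scalings moved the median of all genes by -0.04 to 0.03. Normexp moved the dim probes, HSPA1L from 1.24 to 0.74 and the second HSPB1 probe from 0.67 to 0.21 in KD3.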
